A study of Mus musculus with 32 samples.

Results

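The data are the Capture-C contacts of the Sall4 promoter in small-intestinal organoids of aged mice. Capture-C cuts fixed chromatin with DpnII, joins the ends of fragments that lie close together, and sequences the fragments joined to a chosen bait. The members are the fragments joined to the Sall4 bait whose centres lie between 10 kb and 1 Mb from its own, joined between the 2 deposited tables by bait and fragment number. There were 87 such fragment pairs with 4076 reads, of 30435 pairs with 231380 reads over all 14 baits and all distances. Of these, 82 with 2102 reads were listed in the control-named table, 85 with 1974 reads in the IFNγ-named table, and 80 in both. Of the 87 pairs, 78 had 10 or more reads over both tables and 9 had fewer.

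All organoids came from aged C57BL/6JRj mice, 20 to 22 months old per the series' design text, and no allele or transgene is named. They were given IFNγ at 500 pg/ml for 3 h, on day 3 after splitting, or the same medium without IFNγ. Cultures O76 and O77, at 2 passages each between passage 2 and passage 5, gave 8 libraries, deposited as 32 samples because each was run on 4 lanes. Organoids hold only the epithelium, so the cells around it in the gut are not in these samples. Each library started from 25000 cells. A table whose name says 1 condition is cited in the descriptions of samples of the other, so the tables are called control-named and IFNγ-named here and neither is assigned to a treatment. Differences are IFNγ-named minus control-named, and every sign turns if the subtraction is made the other way. The columns give no culture and no passage, so each library has only a number within its table. The 4 libraries of a condition came from 2 cultures, so p-values measure the spread between these libraries and may be too small. No RNA was measured in these libraries, so the tissue label could not be checked against marker genes, and the expression of Sall4 in them is not known.

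Sall4 is a zinc-finger transcription factor of the spalt family that helps to keep embryonic stem cells pluripotent. It is active in the early embryo and in germ cells and is largely silent in most adult tissues. A promoter in a nucleus touches the fragments next to it most often, and contacts with distant elements, such as enhancers, stand above that decline with distance.

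The bait lay on chromosome 2 of the mm10 build, chr2:168766420-168767218, and was 799 bases long. It held 3 annotated TSS of Sall4 (ENSMUSG00000027547), a gene on the minus strand at chr2:168748332-168767943. Upstream of Sall4 therefore means higher coordinates. The nearest annotated neighbour downstream is Atp9a, which encodes a membrane ATPase of the phospholipid flippase family, and next to it lies Nfatc2, a transcription factor of calcium signalling in lymphocytes. Upstream lie Zfp64, a zinc-finger protein, and, past a long interval without a protein-coding gene body of 20 or more reads, the transcription factor gene Tshz2.

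Sequences of 5 fragments show what the bait was joined to. They are plus-strand GRCm38 sequences of whole DpnII fragments, 5′ to 3′, and the capitals mark the GATC of the cut site. The first 4 each held most or many of their reads in 1 library, and the last was read evenly.
The intergenic fragment with the most reads, chr2:169365768-169365906, 599 kb upstream: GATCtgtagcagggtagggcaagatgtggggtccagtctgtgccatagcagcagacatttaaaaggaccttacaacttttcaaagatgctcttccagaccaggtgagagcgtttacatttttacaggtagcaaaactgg
An intergenic fragment downstream, chr2:168309287-168309446, 457 kb away: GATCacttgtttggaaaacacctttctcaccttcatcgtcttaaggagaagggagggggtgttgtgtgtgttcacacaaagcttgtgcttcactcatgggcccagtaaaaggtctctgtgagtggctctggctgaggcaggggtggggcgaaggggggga
An Atp9a intron, chr2:168653599-168653783, 113 kb downstream: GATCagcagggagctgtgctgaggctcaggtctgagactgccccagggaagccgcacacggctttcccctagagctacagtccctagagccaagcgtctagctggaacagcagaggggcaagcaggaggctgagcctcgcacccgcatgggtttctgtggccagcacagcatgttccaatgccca
An Nfatc2 intron, chr2:168519967-168520137, 247 kb downstream: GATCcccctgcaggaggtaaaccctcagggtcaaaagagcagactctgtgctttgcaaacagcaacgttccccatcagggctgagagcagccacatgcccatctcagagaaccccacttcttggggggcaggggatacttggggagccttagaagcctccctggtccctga
An intergenic fragment read evenly, chr2:168858011-168858211, 91.3 kb upstream: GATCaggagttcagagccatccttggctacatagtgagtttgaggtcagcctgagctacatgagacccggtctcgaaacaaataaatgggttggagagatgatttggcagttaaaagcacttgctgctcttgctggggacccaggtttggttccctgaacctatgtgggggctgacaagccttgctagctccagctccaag

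Repeats masked in RefSeq covered 80.1% of the fragment 91.3 kb upstream, 38.1% of the fragment 457 kb downstream and none of the other 3.

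The libraries held 23037 to 37290 reads over all baits. Reads carry no molecular identifiers, so pairs with many reads in a library need not stand for as many molecules. The Sall4 bait held 5.90%, 7.22%, 9.02% and 6.52% of the reads of control-named libraries 1 to 4. Its shares in IFNγ-named libraries 1 to 4 were 9.14%, 7.18%, 7.06% and 8.40%. The ranges overlapped, with means of 7.16% ± 1.35 (SD, n = 4) and 7.94% ± 1.00 (SD, n = 4). The log2 difference was 0.17 (SE 0.145), with an adjusted p of 0.675 in edgeR's quasi-likelihood test over the 14 baits, where 0.0% of the baits passed.

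The tables did not separate in the share of the Sall4 bait's reads that lay at 10 kb to 1 Mb. They were 18.4%, 21.4%, 24.7% and 31.5% of the bait's reads in control-named libraries 1 to 4, and 19.2%, 29.9%, 24.1% and 21.2% in IFNγ-named libraries 1 to 4. The IFNγ-named values all lay inside the range of the control-named values. The means were 24.0% ± 5.60 and 23.6% ± 4.67 (SD, n = 4 each), a difference of -0.42 percentage points (two-sided exact permutation test, p = 0.886). With 4 against 4 libraries that test cannot give a p under 0.0286. Of the rest of the bait's reads, averaged over 8 libraries, 8.43% lay under 10 kb, 36.1% lay beyond 1 Mb on chromosome 2 and 31.7% on other chromosomes.

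Set beside the other baits, Sall4 ranked 10 of 14 in the share of reads at 10 kb to 1 Mb, with a mean of 23.8% over the 8 libraries. Its share minus the median of the other 13 baits in the same library averaged -2.67 percentage points (SD 5.81) and was above 0 in 3 of 8 libraries (exact sign-flip test, p = 0.234). It was -1.57 without control-named library 1. Compared with each bait in turn, it was lower than Stat3 in all 8 libraries, with a mean difference of -10.5 percentage points (SD 5.22). It was lower than Klf4 in all 8 too, with a mean difference of -9.21 (SD 6.21). It was higher than Phc1 in 7 of 8 libraries, by 7.32 ± 5.93 percentage points, and higher than Tfcp2l1 in 6 of 8, by 6.99 ± 6.5. Its mean difference was -6.12 (SD 4.41) from Esrrb and -6.28 (SD 5.41) from Lifr, each with Sall4 higher in 1 of 8 libraries. The unadjusted exact sign-flip p was 0.0078 for Stat3 and Klf4, the smallest that 8 libraries allow, 0.0156 for Phc1 and Esrrb, 0.0312 for Lifr and 0.0391 for Tfcp2l1. Adjusted over the 13 baits, the p-values of Stat3, Klf4, Phc1 and Esrrb were 0.0508, those of Lifr and Tfcp2l1 were 0.0812 and 0.0846, and none of the 13 passed 0.05.

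**Figure D1:**
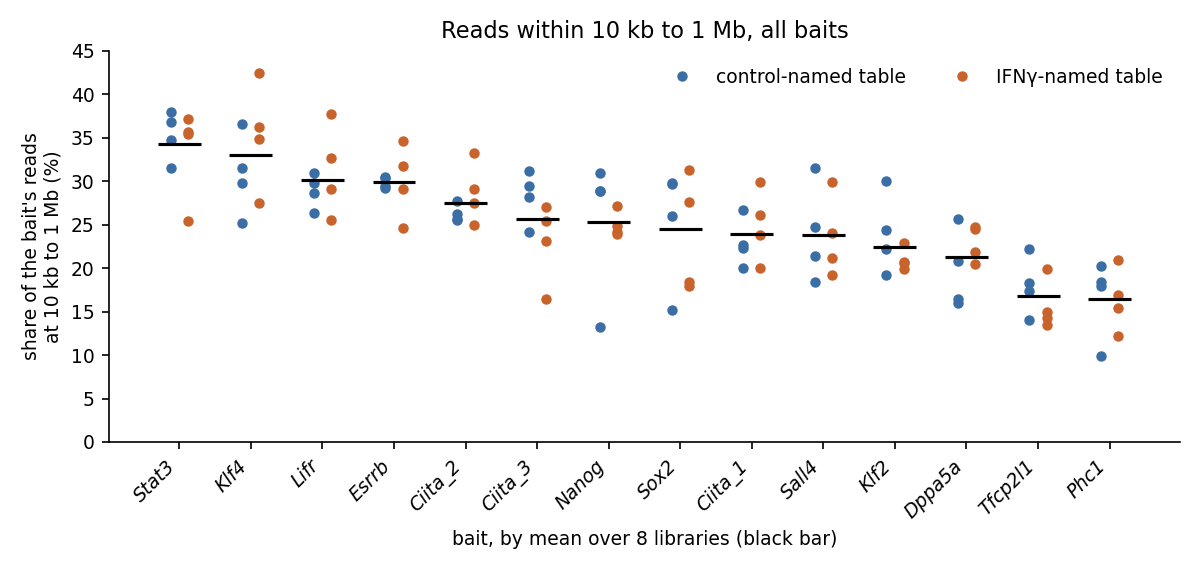
Share of each bait's reads at 10 kb to 1 Mb (%), 1 point per library, 14 baits in order of their mean over 8 libraries (black bars). The 8 Sall4 points run from 18.4% to 31.5%, and all 8 lie below the Stat3 value of the same library.

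Few of the fragments near the bait had a read that joined them to it, and a fragment without a read may still have been joined. The digest of the 2 Mb around the bait gave 4717 DpnII fragments in range, of which 87 (1.84%) had a read. At 10 to 100 kb 39 of 440 fragments had reads (8.86%, 1718 reads), and at 100 kb to 1 Mb 48 of 4277 did (1.12%, 2358 reads). Both sides of the bait were reached: 39 fragments with 1942 reads upstream and 48 with 2134 reads downstream. The upstream share of in-range reads was 47.0% ± 10.1 and 49.0% ± 10.4 (SD, n = 4 each), control-named value first (exact permutation test, p = 0.83). The share of in-range reads at 10 to 100 kb was 41.7% ± 5.43 and 40.5% ± 9.42 (SD, n = 4 each; p = 0.771 by the same exact test). The sign of that difference turned in the alternatives of fragments counted once, 20 kb as the lower limit, and library-led pairs left out.

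The fragments with reads were longer than the rest, with a median of 439 bases against 287 for all fragments in range. None of the 87 was under 100 bases long, against 1043 of the 4717. Their median GC content was 48.5%, against 48.8% for all. Repeats covered over 50% of 19 of the 87 (21.8%) and of 826 of the 4717 (17.5%). By position, 48 fragments were intergenic with 2502 reads, 28 lay in introns of protein-coding genes with 1218 reads, and 11 overlapped coding-gene exons with 356 reads.

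Reads did not decline smoothly along the chromosome. Upstream, the first step of 10 to 100 kb held 754 reads on 17 fragments and the next, to 200 kb, 332 reads on 7. No upstream fragment had a read between 600 and 700 kb or beyond 900 kb. Single fragments stood out beyond 500 kb, and the 2 at 500 to 600 kb held 157 reads. Downstream, 22 fragments at 10 to 100 kb held 964 reads, the steps from 300 to 400 kb and 400 to 500 kb held 280 and 331, and the step from 600 to 700 kb held 37, with 1 read beyond it.

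**Figure D2:**
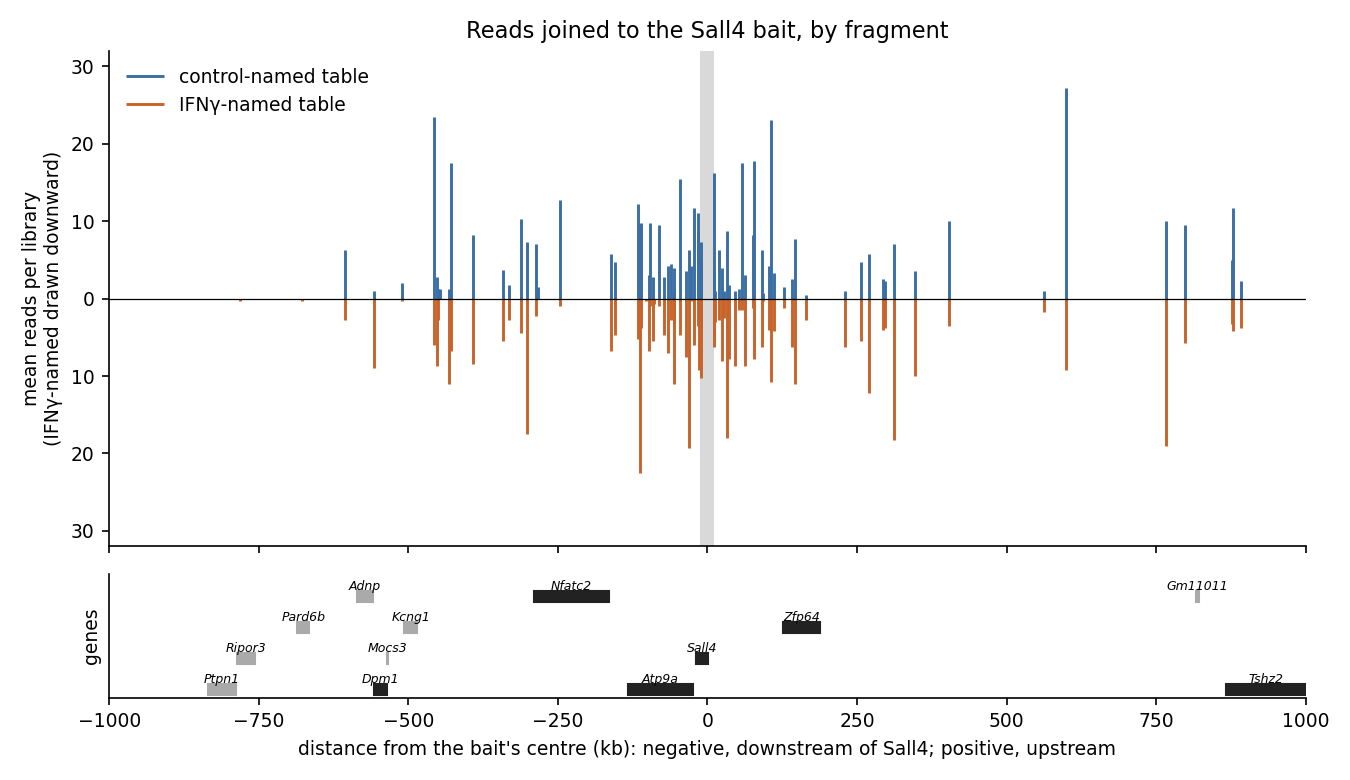
Mean reads per library on each of the 87 fragments against the distance of its centre from the bait's (kb), control-named upward and IFNγ-named downward, with protein-coding gene bodies below (black, 20 or more reads; grey, fewer; Gm20716, which overlaps Dpm1, is not drawn). Reads are densest within 100 kb of the bait (grey band, under 10 kb), and tall lines of 1 table stand at 457 kb downstream and 599 kb upstream.

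Counted by gene, Atp9a and Nfatc2 downstream held 872 and 98 reads, and Zfp64 and Tshz2 upstream 134 and 121. Of 14 protein-coding genes with a body in range, 7 held 20 or more reads, and Ripor3 and Pard6b held 1 read each. Ptpn1, Adnp, Mocs3, Kcng1 and Gm11011 held none. A gene's reads are given as counts and as a share of the in-range reads of the library. Tests by edgeR ran over 191 bait and gene features of 10 or more reads, of which 0.0% passed an adjusted p of 0.05 and 16.8% had an unadjusted p under 0.05. Of the 8 Sall4 features among them, none passed and 3 had an unadjusted p under 0.05, those of Nfatc2, Dpm1 and Gm20716, the last pair on 1 shared fragment.

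Atp9a held the most reads, 872 on 19 fragments. Its reads were 95, 114, 173 and 45 in control-named libraries 1 to 4 and 95, 171, 86 and 93 in IFNγ-named libraries 1 to 4. The tables overlapped, with control-named library 4 the lowest and control-named library 3 the highest. Shares averaged 20.2% ± 8.10 and 22.2% ± 2.97 (SD, n = 4 each), and the log2 difference was 0.20 (SE 0.421, edgeR adjusted p = 0.810). Without control-named library 4 it was -0.01. Among the 19 fragments, 2 lay within 1 kb of an annotated TSS of Atp9a, 96.2 and 97.4 kb from the bait. The nearer held 35 of its 43 reads in control-named library 3, and the farther held 21 of its 39 in IFNγ-named library 2.

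Fragments of Sall4 itself beyond 10 kb, all within the 3′ part of the gene, held 307 reads on 7 fragments. They were read 31, 35, 82 and 22 times in the control-named and 17, 40, 47 and 33 times in the IFNγ-named libraries, so the tables overlapped. The log2 difference was -0.23 (SE 0.517, edgeR adjusted p = 0.810), with control-named library 3 the highest, and it was 0.46 without that library. The 2 fragments nearest the bait, 10.2 and 11.1 kb away, lay within 1 kb of an internal TSS of Sall4 at 168755943. The nearer was read 7, 7, 9 and 6 times against 5, 11, 10 and 15, and the farther 7, 5, 6 and 3 times against 2, 5, 5 and 5. Both were read in every library, and neither had more than 21.4% of its reads in 1 library.

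Nfatc2, 165 kb downstream, was the named gene whose shares did not overlap between the tables. Its reads were 5, 19, 8 and 53 in control-named libraries 1 to 4 and 2, 3, 4 and 4 in IFNγ-named libraries 1 to 4, or 98 reads on 3 intronic fragments. Shares were 1.33%, 3.29%, 1.24% and 10.5% against 0.495%, 0.452%, 0.943% and 0.830%. Every control-named library was higher than every IFNγ-named library, most of all control-named library 4. The means were 4.10% ± 4.38 and 0.680% ± 0.244 (SD, n = 4 each), with an exact permutation p of 0.0286, the smallest possible, and 0.200 adjusted over the 7 named genes. Over all bait and gene shares of 20 or more reads, 6 of 172 (3.49%) did not overlap. In the edgeR fit the log2 difference was -2.65 (SE 0.860, unadjusted p = 0.011, adjusted p = 0.288), so it did not pass.

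The Nfatc2 reads came from 2 fragments above all. The one printed above, 247 kb from the bait, held 48 reads in control-named library 4 and 1 in each of the other 7 libraries. The other, chr2:168480542-168480945, was read 3, 17, 6 and 2 times in the control-named and 1, 2, 3 and 3 times in the IFNγ-named libraries. Without control-named library 4 the difference in mean share went from -3.42 to -1.27 percentage points and the log2 difference from -2.65 to -1.40. A count within 5 kb of the TSS of Nfatc2 in place of its body left out the 3 intronic fragments. It took in the intergenic fragment 162 kb downstream, read 5, 7, 6 and 5 times against 2, 9, 7 and 9. The log2 difference of that other fragment was 0.48 in this count.

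Zfp64, upstream, had its higher values in the IFNγ-named table. Its 134 reads on 4 fragments were 12, 19, 11 and 7 in the control-named and 27, 10, 27 and 21 in the IFNγ-named libraries. IFNγ-named library 2 fell among the control-named values and the other 3 lay above them. Shares averaged 2.40% ± 0.991 and 4.73% ± 2.38 (SD, n = 4 each; exact permutation p = 0.143, adjusted 0.5). The log2 difference was 1.09 (SE 0.531, edgeR adjusted p = 0.324) and did not pass. Most of its reads, 75, lay on the fragment chr2:168912012-168912665, within 1 kb of an annotated TSS of Zfp64, which was read 8, 12, 7 and 4 times against 25, 5, 5 and 9 times.

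Tshz2, 866 kb upstream at its nearest edge, held 121 reads on 3 intronic fragments. It was read 13, 12, 41 and 10 times in the control-named and 6, 13, 11 and 15 times in the IFNγ-named libraries. Apart from control-named library 3 the tables overlapped, between 6 and 15 reads. The log2 difference was -0.69 (SE 0.616, edgeR adjusted p = 0.520), and 0.16 without control-named library 3. Of the 41 reads there, 34 lay on 1 fragment, chr2:169645771-169645899.

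Dpm1, a subunit of the dolichol-phosphate mannose synthase, and Gm20716, which overlaps it, were reached through the same fragment, chr2:168207953-168209558, 558 kb downstream. This fragment also lay within 1 kb of an annotated TSS of Adnp, without overlapping the body of Adnp. It held 33 reads in IFNγ-named library 3 and 1 read in each of the other 7 libraries. The log2 difference of 3.20 (SE 1.27, edgeR adjusted p = 0.288) rests on that library and was 0.16 without it.

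**Figure D3:**
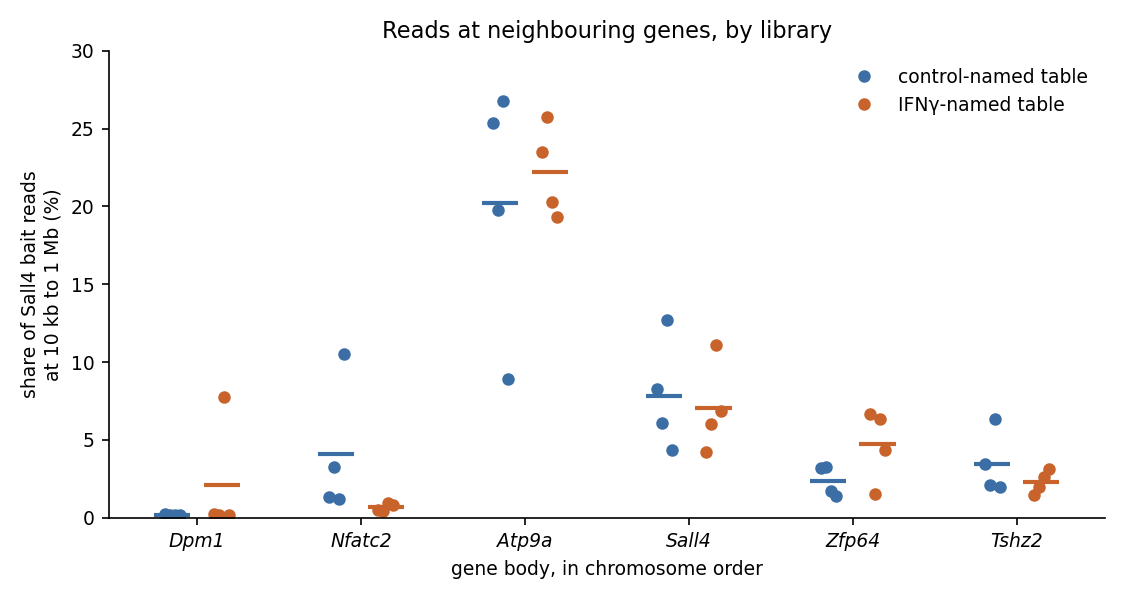
Share of the Sall4 bait's reads at 10 kb to 1 Mb (%) that fell on each named gene body, 1 point per library, with the mean of 4 libraries as a bar (Gm20716 has the values of Dpm1). The tables separate at Nfatc2 alone, where the control-named points run from 1.24% to 10.5% and the IFNγ-named points from 0.452% to 0.943%.

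Single fragments were compared by edgeR over all 3673 pairs of 10 or more reads, of which 0.0% passed an adjusted p of 0.05 and 16.6% had an unadjusted p under 0.05. Of the 78 Sall4 fragments tested, 0 passed, with 10 at an unadjusted p under 0.05, 4 higher and 6 lower in the IFNγ-named table. That split followed the table that lost a library. Without IFNγ-named library 1, 2, 3 or 4 it was 6 higher and 1 lower, 6 and 0, 7 and 0, or 6 and 0. Without control-named library 1, 2, 3 or 4 it was 0 higher and 7 lower, 0 and 8, 0 and 3, or 1 and 6. The Sall4 pairs at all distances, which include these, turned the same way. Of those under 0.05, 31 of 35, 32 of 36, 31 of 34 and 23 of 27 were higher without IFNγ-named libraries 1 to 4. Without control-named libraries 1 to 4, 2 of 31, 3 of 36, 6 of 29 and 5 of 37 were higher. DESeq2 also called 0 of the 78 fragments, with 8 at an unadjusted p under 0.05, against 285 of all 3673 pairs. The smallest adjusted p in edgeR was 0.284. With no filter on reads, 2 of the 87 fragments passed, and 0.552% of all 30435 pairs. The median log2 difference was 0.51 over the 78 fragments and -0.09 over all pairs tested, which lie at all distances. Over the 309 Sall4 pairs tested at all distances it was 0.22. Without IFNγ-named library 1, 2, 3 or 4 the median over the 78 was 0.08, 0.09, 0.25 or -0.08. Over all pairs tested it was then -0.18, -0.22, -0.15 or -0.18. Without control-named library 1, 2, 3 or 4 the median over the 78 was 0.43, 0.60, 0.55 or 0.56. The median over all pairs tested was then 0.08, 0.12, 0.08 or 0.04. In every one of the 10 fragments with an unadjusted p under 0.05, a single library held between 75.9% and 87.3% of the reads. Summed in windows of 10 kb, 0 of the 50 Sall4 windows passed, with 8 at an unadjusted p under 0.05 in edgeR and 5 in DESeq2. Over all 636 windows 0.0% passed. An unadjusted p under 0.05 was found for 16.4% of them in edgeR and for 64 of the 636 in DESeq2.

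The reads of a fragment were unevenly spread over the libraries. In 32 of the 78 fragments (41.0%) 1 library held over 50% of the reads, against 41.7% of the pairs of the other 13 baits in the same range. These 32 held 42.6% of the in-range reads. A read in all 8 libraries was found for 71 of the 78 fragments, and for 861 of the 974 such pairs of the other 13 baits. The leading library was control-named for 34 fragments and IFNγ-named for 44. It was IFNγ-named library 2 for 15, control-named library 2 for 13, and control-named library 4 for only 5.

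In 4 of the 10 fragments with the most reads 1 library held over 50% of the reads. The fragment 599 kb upstream, printed above, was read 7, 8, 9 and 85 times in control-named libraries 1 to 4 and 2, 13, 12 and 10 times in IFNγ-named libraries 1 to 4. Apart from control-named library 4 the tables overlapped. Its log2 difference was -1.65 (SE 0.977, edgeR adjusted p = 0.310) and turned to 0.37 without that library.

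The intergenic fragment chr2:168873709-168874002, 107 kb upstream, was read 8, 61, 15 and 8 times against 10, 13, 7 and 13. The Atp9a intron 113 kb downstream was read 12, 11, 10 and 5 times against 55, 7, 15 and 13. The fragment 457 kb downstream was read 12, 7, 71 and 4 times against 6 in each IFNγ-named library. Each of the 3 had 1 library far above the other 7, and a different one. The fragment chr2:169532480-169532827, 766 kb upstream, was read 13, 12, 9 and 6 times against 4, 59, 6 and 7. Its log2 difference of 0.98 (SE 0.821, edgeR adjusted p = 0.424) turned to -0.64 without IFNγ-named library 2. The Atp9a intron chr2:168736020-168736269, 30.7 kb downstream, was read 6 or 7 times in 7 libraries and 59 times in IFNγ-named library 2. Over the 10 fragments the library at the top held 41.4% to 60.2% of the reads, and the log2 differences ran from -1.88 to 1.68. Each of these differences shrank or turned without its leading library. That outcome was fixed in advance, because the highest library lay in the table with the higher mean. At the ends of that range, the log2 difference was -0.15 without control-named library 3 at 457 kb downstream. At 312 kb upstream it was 0.33 without IFNγ-named library 1.

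**Figure D4:**
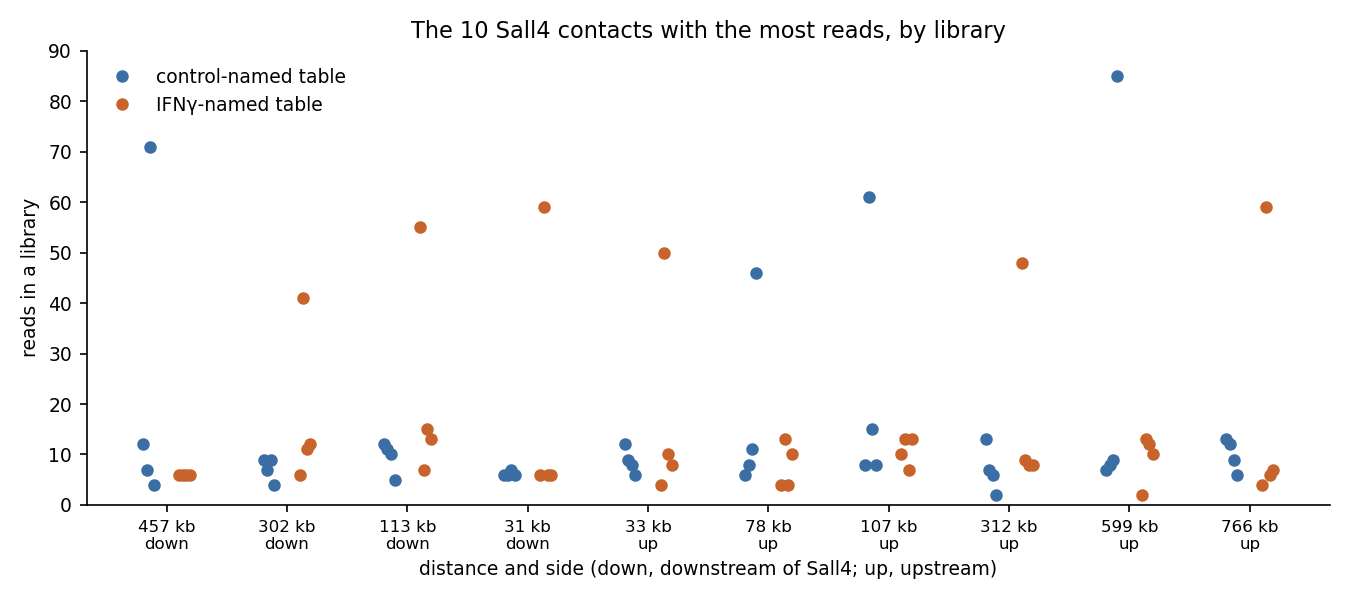
Reads per library on the 10 Sall4 fragments with the most reads, in order along the chromosome, 4 points per table. On each fragment a single library holds 41 to 85 reads and the other 7 hold 2 to 15.

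A smaller set of fragments was read evenly. In 11 of the 78, with 460 reads, no library held over 25% of the reads, and this evenness also keeps their differences small, from -0.51 to 0.71 on the log2 scale. Of these, 4 were upstream and 7 downstream. The fragment chr2:168374060-168374372, 393 kb downstream and intergenic, was read 9, 11, 8 and 5 times against 10, 8, 7 and 9. The fragment 91.3 kb upstream, printed above, was read 5, 11, 4 and 5 times against 5, 6, 8 and 6. The intergenic fragments 154 and 162 kb downstream, between Nfatc2 and Atp9a, held 38 and 50 reads. All 11 were found in every library, the highest library at 16.4% to 24.2% of the reads.

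The authors' score sets the merged reads of a table against a modelled background, and 5 or more was taken as a called contact. It is 1 value per table, with no replicates and no test. Calls were made for 9 of the 82 Sall4 pairs listed in the control-named table, where 11.8% of the pairs of all baits in range were called. They were made for 10 of the 85 in the IFNγ-named table, against 10.4% of all. The next score below the limit was 4.997 and the lowest above it 5.01. The 17 pairs called in either table lay from 107 kb to 879 kb from the bait, 8 upstream and 9 downstream, 14 of them intergenic and the other 3 in introns of Atp9a and Tshz2. None of the 39 fragments within 100 kb was called, and those held 1718 reads. The modelled background was higher near the bait. In the control-named table it was 4.11 at 10.2 kb downstream and 0.101 at 599 kb upstream. The share called within 100 kb over all baits was not counted, so this is not read as a trait of Sall4.

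Of the pairs called, 2 were called in both tables, 22.2% of the control-named and 20.0% of the IFNγ-named list. Over all 14 baits 29 pairs were called in both, 20.9% and 23.8% of the lists. Of the 15 Sall4 pairs called in 1 table, 11 had a score of 4 or more in the other. The same count was not made over all baits, so whether 11 is usual is not known. The 2 called in both tables were the fragments 599 kb upstream, with scores of 6.65 and 5.38, and 766 kb upstream, with 5.21 and 8.05. The control-named score is given first. Each had 1 library with over 50% of its reads, 85 of 146 and 59 of 116. Of the 9 control-named calls 8 had their leading library in that table, and of the 10 IFNγ-named calls 8 did in theirs. The part of leading libraries in the calls was not tested.

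Of the other called fragments, 3 are given here with the library that led them. The fragment chr2:168464208-168465056, 302 kb downstream, had scores of 4.66 and 6.44 and 41 of its 99 reads in IFNγ-named library 2. The fragment chr2:169078151-169079676, 312 kb upstream, had scores of 4.80 and 6.13 and 48 of its 101 reads in IFNγ-named library 1. Below the 10 highest, the fragment chr2:169113229-169113470, 347 kb upstream, had scores of 3.96 and 5.29 and 33 of its 54 reads in IFNγ-named library 4. The even fragment 393 kb downstream was at the limit in both tables, with scores of 4.93 and 5.01. It was the only called fragment among the 11 read evenly.

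**Figure D5:**
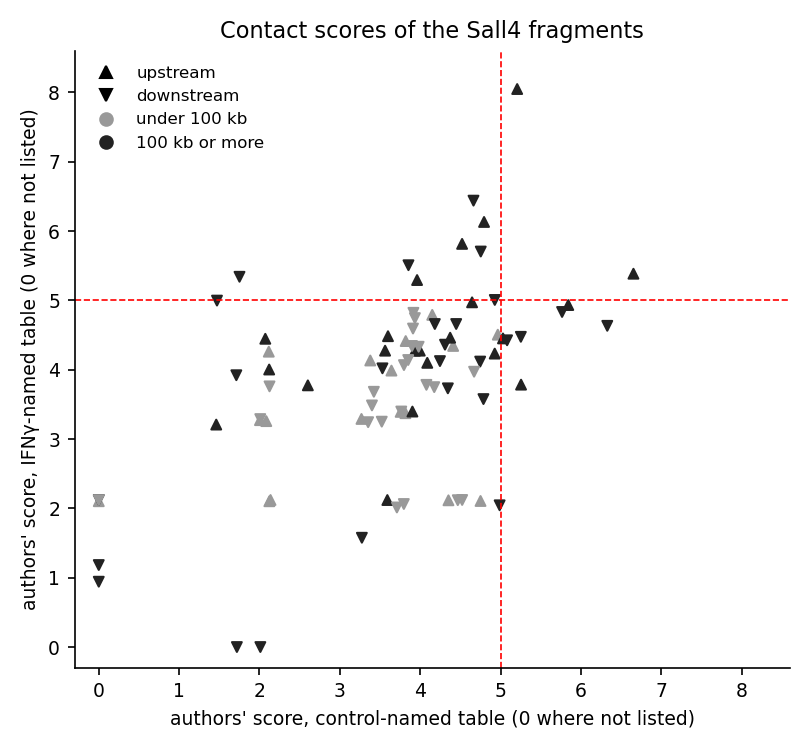
The authors' score of each of the 87 fragments in the control-named (x) and IFNγ-named table (y), triangles pointing up for upstream and down for downstream, grey under 100 kb, with dashed lines at 5. The 2 fragments in the upper right lie upstream at 599 and 766 kb, and all grey points lie below 5 on both axes.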

How the data were processed

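Fixed nuclei were digested with DpnII, ligated and captured at low input, per the labels' protocols. The submitters' processing notes name Bowtie2 and mm10; removal of duplicate reads and caller settings are not given in the sources used. Per the file headers, the authors deposited, for each pair, read counts in 4 columns (taken as 4 libraries), a modelled background signal and a score. A pair listed in 1 table was given counts of 0 in the other.

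Fragment starts were checked against GRCm38 (87 of 87 at GATC), and genes came from GENCODE of that build. Counts were compared with edgeR 4.0.16 (TMM, 10 or more reads, Benjamini-Hochberg over all baits) and DESeq2 1.42.0 in R 4.3.3, which was tested on simulated data; 356 of 3673 adjusted p-values of DESeq2 were NA and stayed so. Shares per library were compared by exact permutation tests, two-sided, in Python 3.11.15. The named genes were those with 20 or more reads, the named fragments the 10 with the most reads, and the named calls the 10 highest scores; further fragments, the comparisons with single baits, the limit of 25% for even reading and the 5 printed sequences were chosen after their values were seen. The members and lists were chosen with earlier results of these data known. The Sall4 promoter sequence was not used here.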

Additional observations from a re-analysis of the deposited data

Results flagged for a closer look

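Within each table's 4 libraries, the highest and the lowest value were set against the rest by Dixon's test at its 95% critical value. Of 44 groups of 4 values, 12 had a library that stood apart. Chance flags about 1 in 20 groups that were not chosen by their values, but 10 of the 12 lie among the 20 groups of the fragments chosen for their many reads, a total that 1 high library raises, so no chance count applies to them. At Gm20716 and Dpm1, IFNγ-named library 3 had a share of 7.78%, against 0.151% to 0.248% in the other 3 libraries of its table; both genes rest on the same fragment. On single fragments, the library that stood apart held 85 reads at 599 kb upstream (control-named library 4, the others 7 to 9), 71 reads at 457 kb downstream (control-named library 3, the others 4 to 12) and 61 reads at 107 kb upstream (control-named library 2, the others 8 to 15). IFNγ-named library 2 held 59 reads at 766 kb upstream, 59 reads at 30.7 kb downstream and 50 reads at 32.6 kb upstream. IFNγ-named library 1 held 55 reads at 113 kb downstream and 48 reads at 312 kb upstream. Control-named library 4 held 46 reads at 78.4 kb upstream, the others 6 to 11. At 30.7 kb downstream control-named library 3 also stood apart, with 7 reads against 6 in each of the other 3, a gap of 1 read.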

How the results depend on the processing

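Under 26 alternatives 34 results gave 438 values, of which 401 kept their direction and side of the threshold and 31 changed sign. Calls at a score of 3 or more rose to 66 (control-named) and 69 (IFNγ-named) and at 7 or more fell to 0 and 1. Within 500 kb, at a score of 5 or more, there were 5 control-named and 8 IFNγ-named calls. The shares called over all baits were not counted at these limits, so whether these counts are usual is not known. With no filter on reads edgeR called 2 Sall4 fragments, both led by control-named library 4, with 0.0395 as the smaller adjusted p, and 168 of all 30435 pairs. The difference in the share at 10 to 100 kb was 0.313 with fragments counted once, 0.520 from 20 kb and 3.66 with library-led pairs left out, and -3.56 to 3.19 with 1 library left out. The difference in the share at 10 kb to 1 Mb was 0.427 up to 500 kb and -2.53 to 2.07 with 1 library left out. The upstream share ran from -1.71 to 6.51 and the bait's log2 difference from 0.06 to 0.30 with 1 library left out. Sall4 minus the median of the other baits was 0.227 for fragments counted once, -0.998 from 20 kb, -1.15 with library-led pairs left out and -3.91 to -1.57 with 1 library left out.

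With 1 library left out, the log2 differences of single fragments ran from -0.11 to 1.39 at 32.6 kb upstream, -1.56 to 0.028 at 78.4 kb upstream, -1.18 to 0.085 at 107 kb upstream, -1.99 to 0.37 at 599 kb upstream and -0.64 to 1.35 at 766 kb upstream. Without their leading library those at 30.7 kb, 113 kb and 302 kb downstream went from 1.63, 1.51 and 1.32 to 0.09, 0.36 and 0.55. Those of genes ran from -0.015 to 0.69 at Atp9a (-0.004 without IFNγ-named library 2), -0.45 to 0.46 at Sall4 and -0.96 to 0.16 at Tshz2, and shares from -1.75 to 4.20 at Atp9a and -2.15 to 0.808 at Sall4. Within 5 kb of a TSS the log2 differences were 0.48 at Nfatc2 and 0.25 at Sall4 and the shares differed by 0.225 and 0.443. At Nfatc2 that count held the intergenic fragment 162 kb downstream and not the intronic ones. With library-led pairs left out, the log2 differences at Sall4 and Tshz2 were 0.0069 and 0.012, and the Tshz2 share differed by 0.134 for fragments counted once.

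Same-numbered libraries of the 2 tables correlated at 0.0018 to 0.0101 over 3673 pairs, and different-numbered ones at -0.0215 to 0.0208. All values were near 0, so they cannot decide whether the column numbers pair the libraries. With the number as a replicate block edgeR called 0 Sall4 fragments, windows and genes, and the bait's log2 difference was 0.17. Of the 78 fragments 3 had an unadjusted p under 0.05 there, against 183 of all 3673 pairs. No paired analysis was possible because the columns do not name culture or passage. Over all 8 libraries the 87 fragments rest on 4076 reads, which limits what could be detected.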
